A study of Homo sapiens with 9 samples.

Results

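The 31 genes described here encode enzymes of cholesterol and fatty acid synthesis and the proteins that control them, taken by symbol from the 17637 genes of a table of read counts. They comprise 7 enzymes of the mevalonate pathway, 11 that carry squalene to cholesterol, 8 enzymes of fatty acid synthesis, desaturation and activation, 4 control genes (SREBF1, SREBF2, SCAP and INSIG1) and the sterol-responsive receptor TMEM97. The mevalonate and squalene-to-cholesterol enzymes together are called the sterol arm (18 genes). All 31 were detected in every library and passed the filter on low counts.

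Messenger RNA was sequenced from the human leukaemia cell line KOPTK1, which derives from a T-cell acute lymphoblastic leukaemia (T-ALL). Hairpins and MYC were delivered by lentivirus. The shControl group carried a control hairpin named for GFP, the shDHX15 group 1 hairpin against DHX15, a DEAH-box RNA helicase, and the shDHX15_MYC group that hairpin together with the coding region of MYC, a transcription factor. The study asked whether MYC acts downstream of DHX15, with 3 libraries per group. Only 1 hairpin against DHX15 was used in these libraries, no group received MYC with the control hairpin, and the time after transduction is not given in the sources used here. Comparisons therefore concern this hairpin, and MYC on top of it. Nothing in the labels says whether the 3 libraries came from separate cultures, so the p-values measure the spread between these libraries, which may be technical.

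DHX15 stood at 284, 278 and 278 CPM (counts scaled to a common library size, here with TMM factors) in shControl, at 182, 162 and 156 in shDHX15, and at 197, 196 and 192 in shDHX15_MYC. MYC stood at 109 to 110 CPM, at 84.3 to 91.3 CPM and at 6922 to 7197 CPM in the same groups. Both targets thus followed the labels, with some DHX15 message left. DHX15 was called higher in shDHX15_MYC than in shDHX15 (log2 0.23, edgeR adjusted p under 0.05). The depth of the knockdown thus differed between the groups with the hairpin, and its part in the results was not tested. Libraries held between 42134302 and 59688062 counts, of which the 31 genes took 0.414% ± 0.000621 (SD, n = 3) in shControl, 0.464% ± 0.0143 with the hairpin and 0.407% ± 0.00217 with hairpin and MYC. The first shDHX15 library stood apart from the other 2, its chi-square over genes divided by its degrees of freedom being 17.3 and 16.4 against them and 2.71 to 4.36 for the remaining pairs within a group. All 12 T-cell and thymocyte markers examined were in the table, at 1 CPM or more for 12 of them in shControl and shDHX15 and for 10 in shDHX15_MYC, and their summed level was 2761 to 2869 CPM in shControl, 2197 to 2271 in shDHX15 and 1456 to 1486 in shDHX15_MYC; the part of this fall in the results was not tested. Markers of adherent cells summed to 1262 to 1270, 560 to 638 and 639 to 661 CPM, nearly all of it vimentin, and markers of other blood cells to 53.1 to 53.5, 48.6 to 51.7 and 115 to 122 CPM, most of it CD79A. Of 7 adherent markers tested, 4 were called lower with the hairpin (edgeR, adjusted p under 0.05), and 5 higher and none lower when MYC was added, with a median log2 fold change of 1.08. Of 5 tested markers of other blood cells, none was called with the hairpin and 4 were higher with MYC (median 1.42). Over all genes tested, 22.0% were higher and 23.0% lower with the hairpin, and 42.1% and 42.6% when MYC was added. The part of these markers in the results was not tested either. In such bulk samples, fewer cells of a type and less RNA per cell cannot be told apart.

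Animal cells make cholesterol from acetyl-CoA through mevalonate and squalene, and fatty acids from acetyl-CoA through malonyl-CoA. Both routes are driven by the sterol regulatory element-binding proteins: SREBP2, from SREBF2, acts mainly on sterol genes, and SREBP1, from SREBF1, mainly on fatty acid genes. SCAP carries the SREBP precursors from the endoplasmic reticulum to the Golgi, where they are cleaved and freed to enter the nucleus, and INSIG1 holds SCAP back when sterols are plentiful. INSIG1 is itself a target of SREBPs. Proliferating leukaemia cells draw on both routes for membranes.

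SREBP sites often lie beside a CCAAT box, the sequence bound by NF-Y, and MYC with its partner MAX binds the E-box CACGTG. Since several members moved together, the promoters (250 bases before to 50 bases after the annotated start) of 5 genes with different responses are shown, from RefSeq on GRCh38.p14. A promoter was at hand for 27 of the 31 members, all but ACAT2, FDFT1, SQLE and FASN. Each sequence is given 5′ to 3′ on the strand of its gene, and capitals mark the motifs searched on both strands: the box CCAAT, which reads ATTGG when it lies on the opposite strand, the palindrome CACGTG, and TCACNCCAC, the core of the sterol regulatory element. The SREBF2 promoter lies at chr22:41832855-41833154 on the plus strand, INSIG1 at chr7:155297628-155297927 on the plus strand, HMGCS1 at chr5:43313363-43313662 on the minus strand, SCD at chr10:100346983-100347282 on the plus strand and NSDHL at chrX:152830813-152831112 on the plus strand.
SREBF2: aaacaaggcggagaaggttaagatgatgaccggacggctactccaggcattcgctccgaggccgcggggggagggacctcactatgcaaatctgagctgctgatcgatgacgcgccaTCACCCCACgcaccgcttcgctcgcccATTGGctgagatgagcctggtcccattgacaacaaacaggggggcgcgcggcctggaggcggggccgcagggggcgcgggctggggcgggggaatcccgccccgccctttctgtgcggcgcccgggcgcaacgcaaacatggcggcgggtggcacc
INSIG1: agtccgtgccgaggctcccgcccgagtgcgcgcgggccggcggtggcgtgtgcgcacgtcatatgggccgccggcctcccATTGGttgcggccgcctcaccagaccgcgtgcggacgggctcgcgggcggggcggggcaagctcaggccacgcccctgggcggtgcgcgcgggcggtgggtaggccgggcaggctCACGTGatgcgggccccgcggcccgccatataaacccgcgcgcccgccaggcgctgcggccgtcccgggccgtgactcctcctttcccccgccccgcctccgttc
HMGCS1: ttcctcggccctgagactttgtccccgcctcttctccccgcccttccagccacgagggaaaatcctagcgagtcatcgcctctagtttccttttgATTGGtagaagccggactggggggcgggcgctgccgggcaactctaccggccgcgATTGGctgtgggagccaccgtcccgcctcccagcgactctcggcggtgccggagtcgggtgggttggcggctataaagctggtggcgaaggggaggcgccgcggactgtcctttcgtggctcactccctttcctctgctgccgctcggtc
SCD: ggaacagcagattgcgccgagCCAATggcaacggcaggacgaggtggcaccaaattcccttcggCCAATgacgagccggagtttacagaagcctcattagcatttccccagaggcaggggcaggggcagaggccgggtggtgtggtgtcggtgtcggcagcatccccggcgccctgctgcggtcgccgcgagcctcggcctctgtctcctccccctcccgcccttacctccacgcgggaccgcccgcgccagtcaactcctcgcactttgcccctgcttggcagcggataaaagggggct
NSDHL: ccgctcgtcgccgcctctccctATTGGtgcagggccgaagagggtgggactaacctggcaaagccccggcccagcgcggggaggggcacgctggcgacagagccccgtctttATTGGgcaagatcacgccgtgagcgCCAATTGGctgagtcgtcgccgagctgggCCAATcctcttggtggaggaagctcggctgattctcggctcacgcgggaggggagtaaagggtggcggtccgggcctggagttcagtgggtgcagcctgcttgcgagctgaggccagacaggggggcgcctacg

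SREBF2 was the only member whose promoter held TCACNCCAC, at -133 to -125 from the start, with a CCAAT box on the opposite strand at -106 to -102. Those letters occurred in 1.13% of the 35116 promoters of this length. A CCAAT box stood in 18 of the 27 members (66.7%), against 34.6% of all promoters. Each member was given 1 promoter, whereas the 35116 are all entries of this length, whether or not their gene was in the count table. The shares are thus of unlike sets. By role it stood in 12 of 15 genes of the sterol arm, in 3 of 7 of the fatty acid arm and in 2 of the 4 control genes. NSDHL held 5 matches, of which CCAAT at -113 to -109 and its reverse at -110 to -106 overlap. CACGTG stood in 4 members (14.8%, against 7.26% of all promoters), which were LSS, SC5D, SCAP and INSIG1. These matches describe the letters in these windows and were not tested for binding.

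Levels of different genes were compared as RPKM, the CPM divided by the length of all annotated exons in kilobases. In shControl INSIG1 was highest at 140.3 RPKM, followed by SCD, a fatty acid desaturase, at 109.6, and FDFT1, squalene synthase, at 71.6. SREBF2 at 59.0 ± 0.798 and ACLY at 57.9 ± 0.668 (SD, n = 3) differed by little more than their spread. The lowest members were ELOVL6 at 2.19, MVK at 3.80, SC5D at 3.97, CYP51A1 at 4.30 and TM7SF2 at 4.61 RPKM. INSIG1 and SREBF2 thus lay more than 10-fold above these 5 genes per length.

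The comparisons were 3: shDHX15 against shControl (the knockdown), shDHX15_MYC against shDHX15 (added MYC) and shDHX15_MYC against shControl. They share libraries, so their values are given side by side and are not independent of each other. Calls of rising or falling genes rest on edgeR's quasi-likelihood test over 15309 genes, with a threshold of 0.05 on the adjusted p. With the knockdown, 11 members rose, 6 fell and 14 were not called; that is 54.8% called, against 45.0% of all genes tested (22.0% higher and 23.0% lower). The members' median log2 fold change was 0.08, against -0.005 over all genes. With added MYC, 10 rose, 18 fell and 3 were not called, 90.3% against 84.7% of all genes (42.1% higher and 42.6% lower), with a median of -0.16 against 0.01. In shDHX15_MYC against shControl, 10 rose, 14 fell and 7 were not called, 77.4% against 84.5% of all genes (42.0% higher and 42.5% lower), with a median of -0.05. The share of members called in each comparison was thus within 10 percentage points of the share over all genes tested. All members average 3 log2 CPM or more. Of the 10151 genes at that level, 56% were called with the knockdown (median 0.005). With added MYC 3368 of them were higher and 5524 lower (median -0.21). In shDHX15_MYC against shControl the counts were 3423 and 5501 (median -0.20). The members' medians in these last 2 comparisons thus lay above those of genes at a like level.

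The ranges of CPM did not overlap between the groups for 18 members with the knockdown (11 higher and 7 lower), against 51.1% of all genes (24.4% higher and 26.6% lower). With added MYC that held for 27 members (10 higher and 17 lower), against 85.0% of all genes (42.4% higher and 42.6% lower). In shDHX15_MYC against shControl it held for 26 members (11 higher and 15 lower), against 87.2% of all genes (43.5% higher and 43.6% lower). Between any 2 groups most of these genes thus did not overlap, and the same was true of the table as a whole.

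Directions near 0 in the 2 comparisons with shDHX15_MYC depend on how libraries are scaled. Plain total counts moved the median of all genes by 0.20 (log2) with added MYC and by 0.27 in shDHX15_MYC against shControl, and by 0.07 with the knockdown; upper quartile scaling moved them by 0.18, 0.17 and -0.01. Under total counts the members split into 12 higher and 11 lower with added MYC, 19 and 8 in shDHX15_MYC against shControl, and 15 and 2 with the knockdown. Of the 15309 genes tested, total counts called 13027, 13021 and 7144 in these comparisons, in the same order. Each member was therefore run under 5 scalings (TMM, DESeq2's size factors, total counts, upper quartile, and TMM on genes averaging 3 log2 CPM or more). Under all 5, 11 members were called higher and 2 lower with the knockdown, 10 higher and 11 lower with added MYC, and 10 higher and 8 lower in shDHX15_MYC against shControl. The share of all genes called under all 5 was not computed, so these counts have no background beside them. The rest were called in only some of the 5, or in none. With the knockdown these partial calls were, with the number of scalings in parentheses, higher for CYP51A1 (2), MVD (1), FASN (1) and FADS2 (1) and lower for EBP (4), TMEM97 (4), ACAT2 (3) and ACLY (3). With added MYC they were higher for MVK (3) and MVD (3) and lower for HMGCS1 (2), LSS (2), MSMO1 (2), SC5D (2), FADS2 (2), SCAP (1) and ACSL3 (1). In shDHX15_MYC against shControl they were higher for MVD (4), ACLY (4), ACSL3 (4), MVK (3), SQLE (3), TMEM97 (3) and MSMO1 (1), lower for FDPS (3), TM7SF2 (3), LSS (2) and SC5D (2), and in both directions for FADS2 (2 higher, 1 lower) and SCAP (1 and 1). Against the median of expressed genes (those averaging 3 log2 CPM or more), 20 members lay above and 11 below with the knockdown, and 17 above and 14 below with added MYC.

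**Figure D1:**
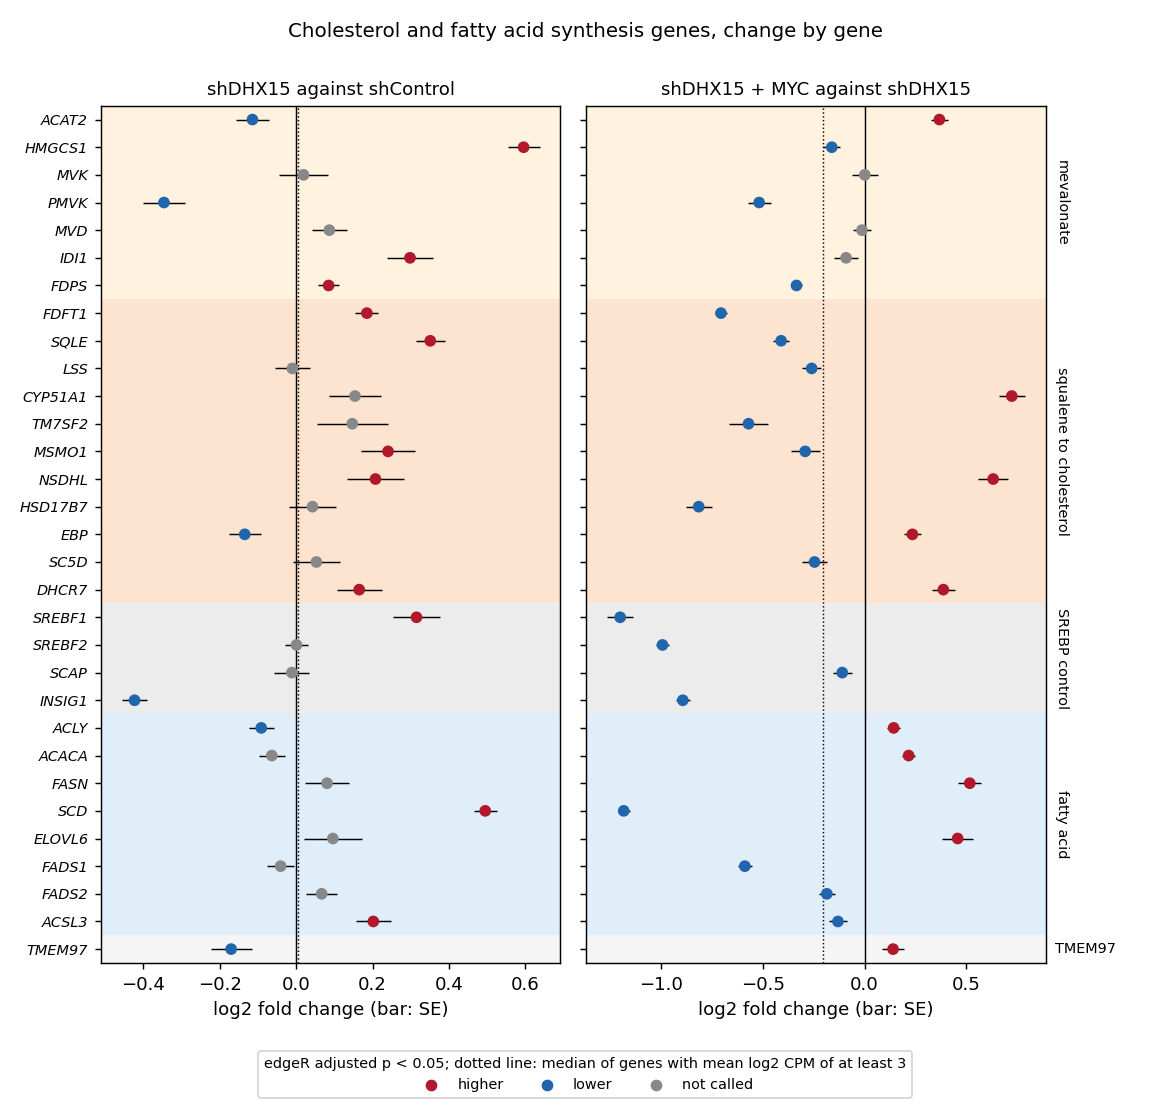
Log2 fold change of each of the 31 genes (x axis, bar: SE) in pathway order (y axis), for shDHX15 against shControl (left) and shDHX15_MYC against shDHX15 (right), with colours for edgeR calls and a dotted line at the median of genes averaging 3 log2 CPM or more. On the left HMGCS1 (0.60) and SCD (0.50) lie farthest right and INSIG1 (-0.42) farthest left; on the right SREBF1 (-1.20) and SCD (-1.18) lie farthest left and CYP51A1 (0.72) and NSDHL (0.63) farthest right. On the right, genes between 0 and the dotted line (among them HMGCS1, MVD, SCAP, FADS2 and ACSL3) change sign under other scalings.

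Among the control genes, both SREBP genes and INSIG1 were lower once MYC was added, whereas the knockdown alone moved SREBF1 up, INSIG1 down and left SREBF2 uncalled. SREBF2 stood at 449.7, 449 and 439 CPM in shControl, at 427, 455 and 456 in shDHX15, and at 222, 226 and 225 in shDHX15_MYC. The shControl and shDHX15 ranges overlapped, and every shDHX15_MYC library lay far below both. The log2 fold change was 0.00 (SE 0.0308, 95% interval from -0.06 to 0.07, adjusted p = 0.983) with the knockdown and -0.99 (SE 0.0313, adjusted p = 5.28e-15), a 1.99-fold fall, with added MYC.

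SREBF1 stood at 186, 187 and 180.1 CPM in shControl, at 195, 243 and 249.6 in shDHX15, and at 101, 98.5 and 99.9 in shDHX15_MYC. No group overlapped another, and the first shDHX15 library, the one that stood apart, lay closest to the controls. It rose by 0.32 on the log2 scale with the knockdown (SE 0.0627, adjusted p = 0.000573), and by 0.42 without that library. With added MYC it fell 2.30-fold (log2 -1.20, SE 0.0643, adjusted p = 7.89e-12), the largest fall of the 31 genes. About 6.92% of the exonic bases of SREBF1 overlap another gene.

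INSIG1, the sterol sensor that retains SCAP, stood at 507, 517 and 512 CPM in shControl, at 366, 383 and 397 in shDHX15, and at 209, 209.5 and 198 in shDHX15_MYC. It was the only control gene to fall in all 3 comparisons, and its 3 groups were wholly separate. Its log2 fold change was -0.42 (SE 0.0335, adjusted p = 3.61e-08) with the knockdown, -0.89 (SE 0.034, adjusted p = 6.9e-14) with added MYC, and -1.32 (adjusted p = 4.22e-16), a 2.49-fold fall, in shDHX15_MYC against shControl. Under TMM that last value was the only one of the 31 in this comparison past 2-fold; under total counts CYP51A1 (1.14) and NSDHL (1.11) were past it too. SCAP, the escort of the SREBPs, stood at 119, 121 and 125 CPM, at 109.8, 127 and 125, and at 112, 113 and 111 in the same order of groups. The SCAP ranges overlapped between shDHX15 and the other groups, and its value with added MYC, -0.11 (adjusted p = 0.0342), changed sign to 0.09 under total counts.

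**Figure D2:**
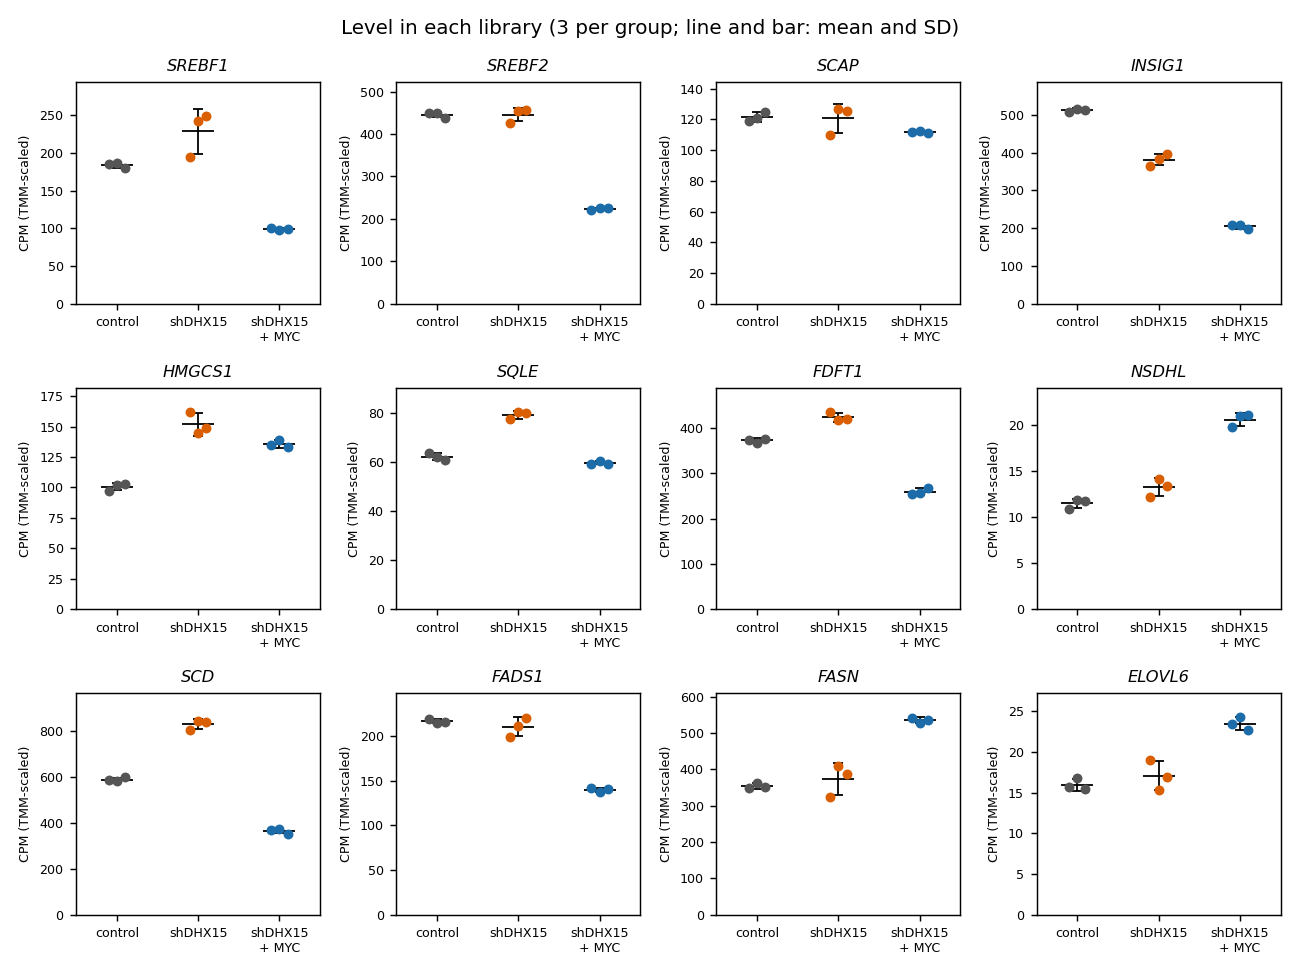
Level in each library (y axis, TMM-scaled CPM from 0) of 12 of the genes for the 3 groups on the x axis, with 3 points per group and a line and bar for mean and SD. SREBF1, SREBF2, INSIG1, SCD and FADS1 are lowest in shDHX15_MYC, whereas FASN, ELOVL6 and NSDHL are highest there, and HMGCS1, SQLE and FDFT1 are highest in shDHX15; the order of HMGCS1 between the hairpin groups turns under total counts.

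Of the 7 mevalonate enzymes, which build farnesyl diphosphate from acetyl-CoA, 3 rose (HMGCS1, IDI1 and FDPS) and 2 fell (PMVK and ACAT2) with the knockdown. That is 71.4% called, against 45.0% of all genes tested (22.0% higher and 23.0% lower) and 56% of genes averaging 3 log2 CPM or more. The call for ACAT2 was made under only 3 of the 5 scalings. HMGCS1, which makes the HMG-CoA that is reduced to mevalonate, showed the largest rise of all members. It stood at 97.1, 102 and 102 CPM in shControl, at 162, 145 and 149 in shDHX15, and at 135, 139 and 134 in shDHX15_MYC, so that neither group with the hairpin reached down to the controls. Its level rose 1.51-fold with the knockdown (log2 0.60, SE 0.0417, adjusted p = 8.86e-09) and remained 1.35-fold above shControl in shDHX15_MYC (log2 0.43, SE 0.0418, adjusted p = 2.95e-08). The step from shDHX15 to shDHX15_MYC was -0.16 (adjusted p = 0.00157) and turned to 0.04 under total counts. Other annotated genes overlap 15.0% of the exonic bases of HMGCS1 and 14.8% of those of IDI1.

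IDI1, the isomerase of isopentenyl diphosphate, stood at 67.1, 61.5 and 61.1 CPM in shControl and at 86.9, 71.3 and 75.3 in shDHX15, without overlap. It rose by 0.30 on the log2 scale with the knockdown (SE 0.06, adjusted p = 0.000633) and by 0.21 in shDHX15_MYC against shControl (adjusted p = 0.00427), with no call between the 2 hairpin groups. PMVK, phosphomevalonate kinase, fell at both steps: 38.2, 39.9 and 37.2 CPM in shControl, 30.9, 28.4 and 31.5 in shDHX15, and 20.8, 21.3 and 21.2 in shDHX15_MYC. Its groups did not overlap, and its log2 fold changes were -0.35 with the knockdown (adjusted p = 6.55e-05) and -0.52 with added MYC (adjusted p = 1.45e-07). FDPS, farnesyl diphosphate synthase, stood at 177 to 179, 188 to 189.9 and 149 to 151 CPM. Its rise with the knockdown (log2 0.09, adjusted p = 0.0215) was smaller than its fall with added MYC (-0.33, adjusted p = 5.35e-09), and 18.6% of its exonic bases overlap another gene.

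ACAT2, which condenses acetyl-CoA units at the entry of the pathway, was the only mevalonate enzyme called higher with added MYC under TMM. It stood at 62.1, 56.0 and 61.1 CPM in shDHX15 and at 76.4, 76.5 and 78.2 in shDHX15_MYC, a log2 rise of 0.37 (SE 0.0434, adjusted p = 4.07e-07). However, 52.3% of its exonic bases overlap genes on the opposite strand, TCP1 among them, and the strand setting of the counting is not given in the sources used here, so the counts of ACAT2 and TCP1 may not be fully separate; TCP1 itself changed by 0.62 with added MYC, and SOD2, another overlapping gene, by -0.45. MVK and MVD, the first kinase and the decarboxylase of the pathway, were called in none of the 3 comparisons under TMM, at 22.9 to 26.5 and 48.8 to 56.0 CPM over the 9 libraries. Other scalings called both higher with added MYC and in shDHX15_MYC against shControl, and 1 called MVD higher with the knockdown.

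The 11 enzymes from squalene to cholesterol divided into a part that fell and a part that rose when MYC was added, with all 11 called (4 higher and 7 lower). The table as a whole divided too, with 84.7% of all genes tested called (42.1% higher and 42.6% lower). Of the 10151 genes averaging 3 log2 CPM or more, 3368 were higher and 5524 lower. Under all 5 scalings the 4 higher were CYP51A1, NSDHL, EBP and DHCR7, and 4 were lower, FDFT1, SQLE, TM7SF2 and HSD17B7; LSS, MSMO1 and SC5D were called lower in 2 of the 5. With the knockdown 5 rose (FDFT1, SQLE, MSMO1, NSDHL and DHCR7), 1 fell (EBP, under 4 of the 5 scalings) and 5 were not called. That is 54.5% called, against 45.0% of all genes tested (22.0% higher and 23.0% lower) and 56% of genes averaging 3 log2 CPM or more. FDFT1 and SQLE, which make squalene and its epoxide, are the entry to this segment.

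FDFT1 stood at 374, 368 and 376 CPM in shControl, at 435, 418 and 419 in shDHX15, and at 255, 257 and 268 in shDHX15_MYC. Its groups did not overlap: it rose by 0.19 on the log2 scale with the knockdown (SE 0.0303, adjusted p = 9.3e-05), fell by 0.71 with added MYC (SE 0.0305, adjusted p = 3.97e-13) and ended 1.44-fold below shControl (adjusted p = 2.99e-11). SQLE, the epoxidase, stood at 63.9, 62.0 and 60.9 CPM, at 77.6, 80.6 and 80.2, and at 59.5, 60.5 and 59.3 in the same order. It rose by 0.35 with the knockdown (SE 0.0381, adjusted p = 1.24e-06) and fell by 0.41 with added MYC (SE 0.038, adjusted p = 1.72e-08). The value for SQLE in shDHX15_MYC against shControl was -0.06 (adjusted p = 0.16) and 0.21 under total counts.

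HSD17B7, the 3-ketosteroid reductase that works with NSDHL in removing the methyl groups at carbon 4, was at 27.6, 27.4 and 27.4 CPM in shControl, at 30.6, 27.5 and 26.9 in shDHX15 and at 16.0, 15.4 and 16.8 in shDHX15_MYC. Only the last group stood apart, 1.76-fold below shDHX15 (log2 -0.82, SE 0.063, adjusted p = 1.38e-09). NSDHL, the dehydrogenase of that demethylation, moved the opposite way, from 10.9, 11.8 and 11.8 CPM through 12.3, 14.2 and 13.4 to 19.8, 21.0 and 21.1. Its log2 fold change with added MYC was 0.63 (SE 0.0724, adjusted p = 2.78e-07), and with the knockdown 0.21 (adjusted p = 0.0332). CYP51A1, lanosterol demethylase, stood at 15.2, 16.6 and 14.5 CPM, at 16.7, 17.2 and 17.4, and at 28.2, 27.2 and 29.5. It rose 1.65-fold with added MYC (log2 0.72, SE 0.0643, adjusted p = 9.49e-09), the largest rise of the 31 genes, while the knockdown value of 0.15 missed the threshold under TMM (adjusted p = 0.0723) and passed it under 2 of the 5 scalings. Other annotated loci, mostly on its own strand, cover 83.2% of the exonic bases of CYP51A1, so how its reads were assigned is uncertain.

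DHCR7, the last reductase of one branch of the pathway, stood at 44.2, 45.3 and 41.9 CPM in shControl, at 44.6, 52.4 and 50.2 in shDHX15, and at 60.9, 64.4 and 67.5 in shDHX15_MYC. The first 2 groups overlapped in 1 library, the one that stood apart. Its rise with added MYC was 0.39 on the log2 scale (SE 0.0575, adjusted p = 7.01e-06). EBP, the sterol isomerase, lay at 59.9 to 63.6 CPM, at 54.0 to 58.7 and at 66.6 to 66.9, which gave -0.13 (adjusted p = 0.0162) and then 0.24 (adjusted p = 5.97e-05). LSS, lanosterol synthase, and SC5D, a desaturase, changed by -0.26 and -0.25 with added MYC under TMM, and by -0.06 and -0.05 under total counts.

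Of the 8 fatty acid genes, ACLY, ACACA, FASN and ELOVL6 rose with added MYC, and SCD and FADS1 fell, under all 5 scalings; FADS2 and ACSL3 were called lower in 2 and in 1 of the 5. With the knockdown SCD and ACSL3 rose, and ACLY was called lower in 3 of the 5. FASN, the synthase that makes palmitate, stood at 348, 362 and 351 CPM in shControl, at 324, 411 and 388 in shDHX15, and at 543, 529 and 537 in shDHX15_MYC. The shDHX15 libraries straddled the controls, and the knockdown value was 0.08 (SE 0.0572, 95% interval from -0.04 to 0.20, adjusted p = 0.27). Without the first shDHX15 library that value was 0.17 and was called (adjusted p = 1.48e-07). With added MYC FASN rose 1.43-fold (log2 0.52, SE 0.057, adjusted p = 1.71e-07).

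ACACA, acetyl-CoA carboxylase, whose product malonyl-CoA feeds FASN, stood at 104, 105 and 108 CPM, at 99.0, 102 and 103, and at 116, 117 and 119. The shift with added MYC was small but beyond the spread of the libraries (log2 0.22, SE 0.0332, adjusted p = 1.01e-05). ELOVL6, which lengthens palmitate, stood at 15.7, 16.8 and 15.4 CPM, at 19.0, 15.4 and 17.0, and at 23.4, 24.3 and 22.7. Its first 2 groups overlapped and the third stood 1.37-fold above shDHX15 (log2 0.46, SE 0.0748, adjusted p = 2.1e-05). ACLY, which makes cytosolic acetyl-CoA from citrate, lay at 298 to 305, 269.5 to 294 and 312 to 316 CPM, with a log2 change of 0.14 with added MYC (adjusted p = 0.000633).

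SCD, the desaturase that makes oleate, changed in opposite directions with the knockdown and with added MYC. It stood at 586, 579.8 and 597 CPM in shControl, at 803, 843 and 837 in shDHX15, and at 368, 372 and 353 in shDHX15_MYC, with wide gaps between the groups. It rose 1.41-fold with the knockdown (log2 0.50, SE 0.0301, adjusted p = 1.51e-09), fell 2.27-fold with added MYC (log2 -1.18, SE 0.0305, adjusted p = 3.85e-16) and ended 1.61-fold below shControl (log2 -0.69, adjusted p = 5.31e-13). Under TMM, SREBF1 and SCD were the only 2 members past 2-fold with added MYC, and SCD came to -0.99 under total counts.

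FADS1, the delta-5 desaturase of polyunsaturated fatty acids, stood at 219, 214 and 216 CPM, at 199, 212 and 220.4, and at 142, 137 and 141. Like SREBF2 it overlapped between shControl and shDHX15 and fell when MYC was added (log2 -0.59, SE 0.036, adjusted p = 5.14e-11). FADS2, its neighbour gene and the delta-6 desaturase, lay at 279.7 to 285, 272 to 313 and 255 to 264 CPM; its value of -0.19 with added MYC turned to 0.01 under total counts. ACSL3, an acyl-CoA synthetase, lay at 55.9 to 60.2, 62.8 to 68.5 and 59.3 to 62.5 CPM, rising by 0.20 with the knockdown (adjusted p = 0.00168), while its -0.13 with added MYC turned to 0.07 under total counts. TMEM97, the sigma-2 receptor, lay at 41.8 to 41.9, 33.9 to 38.9 and 40.1 to 42.0 CPM. It was lower with the knockdown (-0.17, adjusted p = 0.016, under 4 of the 5 scalings) and higher with added MYC (0.14, adjusted p = 0.0221), and its value against shControl, -0.03, turned to 0.24 under total counts.

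The sterol and fatty acid arms, taken as wholes, kept nearly the same distance in the 3 groups. The mean log2 CPM of the 18 sterol genes was 5.51 ± 0.0033 (SD, n = 3) in shControl, against 5.62 ± 0.0125 in shDHX15 and 5.50 ± 0.00962 in shDHX15_MYC. That of the 8 fatty acid genes was 7.30 ± 0.014, 7.39 ± 0.037 and 7.30 ± 0.0116. Sterol minus fatty acid, a quantity that library scaling does not touch, was -1.79 ± 0.0166, -1.77 ± 0.0375 and -1.79 ± 0.0172, and its ranges overlapped between all groups. In the knockdown 8 of 18 sterol genes rose and 3 fell (median 0.12), and 2 of 8 fatty acid genes rose and 1 fell (median 0.07). With added MYC the counts were 5 up and 10 down (median -0.20) in the sterol arm and 4 up and 4 down (median 0.01) in the fatty acid arm. In shDHX15_MYC against shControl they were 7 and 7 (median -0.02) and 3 and 3 (median 0.06). Over all genes tested, 22.0% were higher and 23.0% lower with the knockdown. With added MYC the shares were 42.1% and 42.6%, and in shDHX15_MYC against shControl 42.0% and 42.5%. Genes averaging 3 log2 CPM or more had a median of -0.21 with added MYC, close to that of the sterol arm. Their median was -0.20 in shDHX15_MYC against shControl. The mean log2 fold changes of the arms differed by 0.02, -0.02 and -0.001 in the 3 comparisons. The larger differences lay within each arm: between CYP51A1 and HSD17B7 in the sterol arm (0.72 and -0.82 with added MYC), and between FASN and SCD in the fatty acid arm (0.52 and -1.18).

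**Figure D3:**
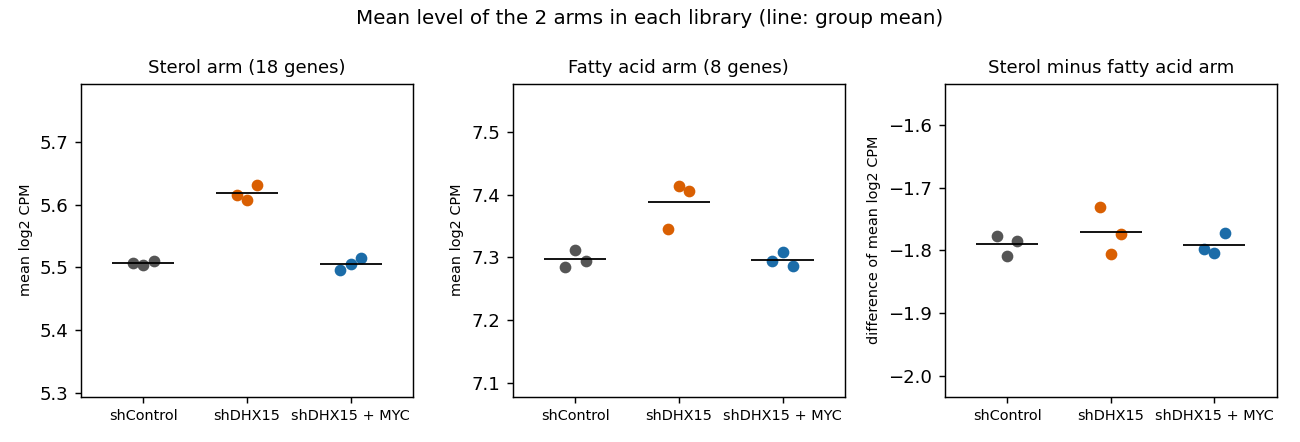
Mean log2 CPM of the 18 sterol genes (left), the 8 fatty acid genes (middle) and their difference (right) in each of the 9 libraries, with a line at each group mean. The level axes each span the same width of log2 units. Both arms sit highest in shDHX15 (5.62 and 7.39), an order that depends on the scaling for shDHX15_MYC, and the difference lies near -1.79, -1.77 and -1.79 in the 3 groups with overlapping points.

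Ratios of 2 genes within a library do not depend on scaling. The ratio of SCD to FASN reads was 1.66 ± 0.0536 (SD, n = 3) in shControl, against 2.23 ± 0.22 in shDHX15 and 0.68 ± 0.0234 in shDHX15_MYC, with no overlap between groups. FASN reads per SREBF1 read were 1.92 ± 0.0419, 1.63 ± 0.072 and 5.38 ± 0.0157, so FASN and the gene of its regulator moved apart with added MYC. HMGCS1 reads per SREBF2 read climbed at both steps, from 0.225 ± 0.00883 to 0.341 ± 0.0334 and 0.606 ± 0.0111. INSIG1 reads per SREBF2 read were 1.15 ± 0.0205 in shControl and lower in both groups with the hairpin, at 0.856 ± 0.0142 and 0.918 ± 0.0313. FADS2 reads per FADS1 read were 1.31 ± 0.027, 1.41 ± 0.0603 and 1.86 ± 0.0596. A ratio shows that 2 genes changed unequally, not which of them changed.

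**Figure D4:**
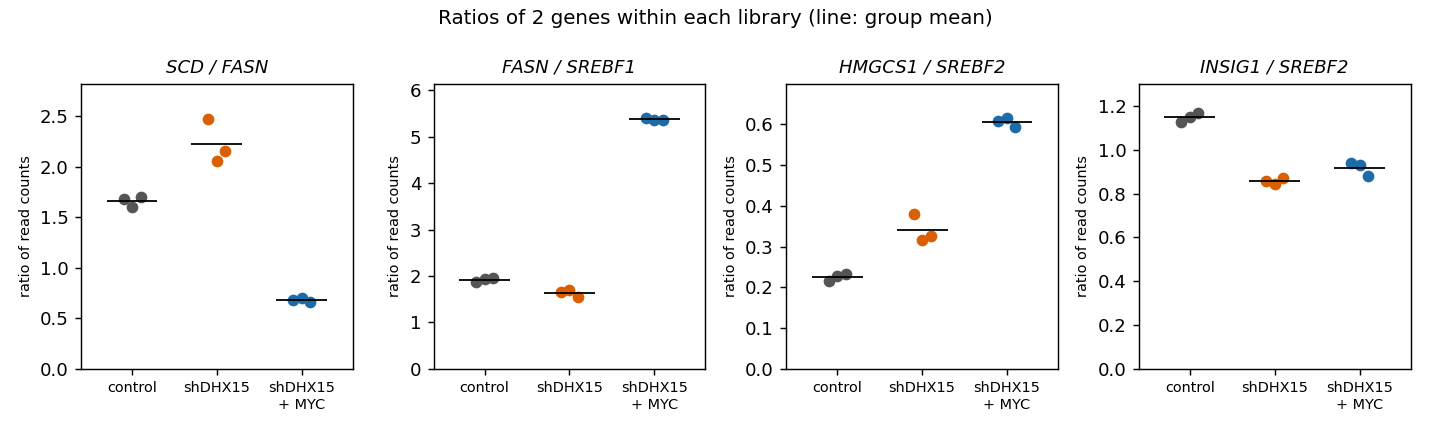
Ratios of read counts of 2 genes in each of the 9 libraries (y axis from 0) for the 3 groups, with a line at each group mean. SCD over FASN is lowest in shDHX15_MYC (0.68), FASN over SREBF1 (5.38) and HMGCS1 over SREBF2 (0.606) are highest there, and INSIG1 over SREBF2 is highest in shControl (1.15).

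The genes around these routes were read from further lists, whose counts stand beside the shares of all genes tested: 22.0% higher and 23.0% lower with the knockdown, and 42.1% and 42.6% with added MYC. Of 4 further genes of sterol synthesis, 1 rose and 2 fell with the knockdown (75% called, against 45.0% of all genes). With added MYC 2 rose and 2 fell (100% against 84.7%), with a median log2 fold change of 0.004. LBR, a sterol reductase and nuclear envelope protein, was among those that fell, 2.01-fold with added MYC (log2 -1.01, adjusted p = 7.82e-15).

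Of 11 genes for SREBP processing and turnover, 3 rose and 4 fell with the knockdown (63.6% called, against 45.0% of all genes), and 4 rose and 7 fell with added MYC (100% against 84.7%). MBTPS1, the site-1 protease that cleaves SREBPs, fell by 1.09 with added MYC (SE 0.0304, adjusted p = 9.93e-16), and INSIG2, the relative of INSIG1, fell by 1.30 (adjusted p = 3.6e-11). PGRMC1, a sterol-binding membrane protein, rose by 0.36 with the knockdown (adjusted p = 0.000161). Of 11 genes for sterol uptake and transport, 4 rose and 2 fell with the knockdown (54.5% called) and 2 rose and 8 fell with added MYC (90.9%). STARD4, a sterol carrier, followed the pattern of SQLE, with 0.68 (adjusted p = 3.8e-07) and -0.79 (adjusted p = 5.3e-09), whereas LIPA, the lysosomal esterase, fell at both steps (-0.31 and -1.24). VLDLR, a lipoprotein receptor, fell 3.47-fold with added MYC (adjusted p = 7.43e-14).

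Of 6 tested genes of the liver X receptor route, which exports cholesterol, 2 fell with the knockdown (33.3% called) and the remaining 4 were not called, and 4 rose and 2 fell with added MYC (100%). ABCG1, a sterol exporter, dropped from 42.6 to 5.35 CPM on average with added MYC, a 7.98-fold fall (adjusted p = 1.5e-15), the widest in these pathway lists. It went against most of its list, whose log2 fold changes with added MYC under TMM had a median of 0.48. The highest, 2.87, was SMPDL3A, near the floor at 0.292 CPM in shDHX15 and 2.12 CPM in shDHX15_MYC. The fall of NR1H2 (-0.11) was smaller than the 0.20 by which total counts moved the median of all genes. Of 22 tested genes around fatty acid synthesis, 6 rose and 7 fell with the knockdown (59.1% called, against 45.0% of all genes) and 8 rose and 13 fell with added MYC (95.5% against 84.7%). ELOVL5, which lengthens polyunsaturated chains, fell by 1.33 (adjusted p = 2.65e-17), ACSS2, which makes acetyl-CoA from acetate, by 1.76 (adjusted p = 2.18e-14), and SLC25A1, the mitochondrial citrate carrier, by 1.37 (adjusted p = 1.73e-13). SCD5, a relative of SCD, also fell, by 0.27 with the knockdown and by 1.19 with added MYC. Its direction at the knockdown was opposite to that of SCD.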

How the data were processed

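Poly(A)-selected RNA from KOPTK1 cells was read from both ends, per the labels' protocols. Tools named by the submitters' processing notes are HISAT2 2.2.1, FastQC 0.11.9 and DESeq2 1.32.0, with build hg38. How reads were counted, with which annotation and strand setting, is not given in the sources used here. Unscaled whole-number counts for 17637 genes in 9 libraries were deposited by the authors. Columns named for a GFP hairpin were taken as shControl and those named for another hairpin, with or without MYC, as shDHX15_MYC and shDHX15, the labels giving no other target.

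Genes were kept by filterByExpr in edgeR 4.0.16 (15309 genes), scaled by TMM factors and fitted in R 4.3.3 by quasi-likelihood with 1 mean per group over all 9 libraries. Tests were 2-sided, with Benjamini-Hochberg adjustment over the 15309 genes and calls under 0.05. Libraries of the same number did not deviate together from their group means (r from -0.0190 to 0.0636 across genes), so the model did not pair them. Log2 CPM used a prior count of 0.5. Lengths, positions and overlaps came from GENCODE v29 (GRCh38), and promoters from RefSeq (GRCh38.p14). The fit was tested on simulated counts. Alternatives were DESeq2 1.42.0, other scalings and filters, 2-group fits, a replicate block and leaving out each library. Library totals of 42134302 to 59688062 counts set the precision.

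The 31 members and the further lists were chosen with earlier results of these data known. All members may be named. Values in every library are given for the control genes, for HMGCS1, SQLE, FASN, ACACA and SCD, and for those with the smallest adjusted p. From each further list up to 3 called genes with the smallest adjusted p in a comparison are named; some listed genes are not reported here. Of 157 listed symbols, 153 matched directly.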

Additional observations from a re-analysis of the deposited data

How the results depend on the processing

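With the knockdown, 11 members were higher and 6 lower. The lower count was 2 under total counts, 2 when only the groups compared were fitted and 4 among genes averaging 3 log2 CPM or more; leaving out 1 library at a time gave 8 to 16 higher and 3 to 5 lower. Without shControl replicate 1 or replicate 3, 11 of the 17 calls were kept. Calls for HMGCS1, IDI1, FDFT1, SQLE, SREBF1, SCD, ACSL3, PMVK and INSIG1 held in every such fit, and those for ACAT2, FDPS, MSMO1, NSDHL, EBP, DHCR7, ACLY and TMEM97 were lost in at least 1. Without shDHX15 replicate 1, which stood apart, 16 of the 17 were kept, ACLY was lost, and MVD, CYP51A1, TM7SF2, FASN and FADS2 were gained. With added MYC the lower count went from 18 to 11 under total counts, upper quartile scaling and that filter, and leaving out 1 library gave 9 to 10 higher and 17 to 18 lower. In shDHX15_MYC against shControl, 10 higher became 19 under total counts, 16 under upper quartile scaling and 17 under that filter, and 14 lower became 8 under total counts and that filter; leaving out 1 library gave 9 to 10 higher and 12 to 14 lower. The distance between the arms did not depend on scaling and ran from -6.86e-06 to 0.04 with the knockdown, from -0.04 to -0.001 with added MYC and from -0.01 to 0.01 in shDHX15_MYC against shControl when 1 library was left out. Beyond the shift that each scaling brings, the cause of these changes was not tested.

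Over the 5 scalings 15 members took both signs in at least 1 comparison: 5 with the knockdown (LSS, SREBF2, SCAP, ACACA and FADS1, none of them called), 6 with added MYC (IDI1, not called, and the 5 below) and 7 in shDHX15_MYC against shControl. For 10 of them the value was called under TMM or under the other scaling. With added MYC, under total counts, upper quartile scaling and the filter at 3 log2 CPM in turn, ACSL3 came to 0.0679, 0.0474 and 0.0681, HMGCS1 to 0.0376, 0.0172 and 0.0378, MVD to 0.19, 0.17 and 0.19, and SCAP to 0.0891, 0.0687 and 0.0890; FADS2 came to 0.0133 under total counts and under the filter. In shDHX15_MYC against shControl, under the same 3, FADS2 came to 0.15, 0.0483 and 0.0945, SCAP to 0.14, 0.0463 and 0.0925, SQLE to 0.21, 0.11 and 0.15, and TMEM97 to 0.24, 0.14 and 0.18. Under total counts FDPS came to 0.0155, MSMO1 to 0.21 and SC5D to 0.0724, the last also 0.0204 under the filter. Over single genes and settings there were 1209 values. Of these, 1036 kept their direction and their side of the threshold, and 34 were uncalled and turned in sign. Another 78 lost and 31 gained a call. The remaining 30, those listed above, turned in sign and were called under TMM or under the other scaling. With a replicate block, the pairing by number that the data do not bear out, the same members were called: 17 with the knockdown, 28 with added MYC and 24 in shDHX15_MYC against shControl.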

Other observations

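Routes that branch from or use up these lipids were read from lists that the results do not describe. Of 11 genes that turn farnesyl diphosphate into products other than sterols, 2 rose and 3 fell with the knockdown (45.5% called, against 45.0% of all genes tested), and 7 rose and 2 fell with added MYC (81.8% against 84.7%), with a median log2 fold change of 0.22. PDSS1, which makes the side chain of ubiquinone, averaged 13.7 CPM in shControl, 11.7 with the hairpin and 34.6 with MYC added, a 2.95-fold rise with added MYC (log2 1.56, SE 0.0667, edgeR adjusted p = 3.45e-13). DHDDS, a subunit of the synthase of dolichol precursors, rose 2.37-fold (adjusted p = 2.82e-13), and DOLK, dolichol kinase, 3.06-fold (log2 1.61, adjusted p = 1.38e-10). In the same libraries FDPS, the enzyme upstream of these branches, changed by -0.33 and FDFT1, the first enzyme committed to sterols, by -0.71.

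Of 14 genes of glycerolipid synthesis, 1 rose and 3 fell with the knockdown (28.6% called, against 45.0% of all genes), and 5 rose and 7 fell with added MYC (85.7% against 84.7%). PISD and PCYT1A, of phosphatidylethanolamine and phosphatidylcholine synthesis, rose by 1.18 (adjusted p = 3.7e-14) and 0.99 (adjusted p = 1.23e-13), and AGPAT5, an acyltransferase of phosphatidic acid synthesis, fell by 1.11 (adjusted p = 4.53e-14). Of 12 genes of fatty acid oxidation, 3 rose and 1 fell with the knockdown (33.3% called) and 2 rose and 8 fell with added MYC (83.3%). CPT1A, which admits fatty acids to mitochondria, rose by 0.29 with the knockdown (adjusted p = 3.86e-06) and fell by 1.67 with added MYC (adjusted p = 4.57e-17). ACADVL, the first dehydrogenase for long chains, rose by 0.49 (adjusted p = 1.92e-06) and fell by 0.96 (adjusted p = 2.41e-11). These 2 genes thus went up and then down, as SCD and SREBF1 did.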
